A study of Mus musculus with 12 samples.

Results

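The matricellular CCN proteins Ctgf (CCN2), Cyr61 (CCN1), Nov (CCN3) and Wisp2 (CCN5) were examined in injured murine hip cartilage, with the mechanosensing genes Ankrd1, Yap1, Wwtr1 (TAZ) and Tead1. Mechanical strain on the cell is relayed to the nucleus in part by Yap1 and Wwtr1, coactivators that bind TEAD transcription factors, and Cyr61, Ctgf and Ankrd1 are among the genes they switch on. The genes were taken by name, in a set chosen with earlier results of these data known. The 8 genes had 14 probes on the array, and 11 probes of 6 genes were among the 21004 probes (15434 gene symbols) of the normalized table.

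Post injury, Cyr61 rose and Wisp2 fell in both genotypes. Ctgf rose by over 2-fold at 1 of 2 probes in Mapk9 KO cartilage and by under 2-fold in WT, and no gene of the set differed between the genotypes in its response after adjustment. The message of Wwtr1 rose at 1 of its 2 probes in Mapk9 KO. A further probe of its transcript, listed under another symbol, passed as higher in both genotypes, in WT not under all settings. Yap1 did not pass in either genotype. Ankrd1 did not pass in WT and passed as lower in Mapk9 KO near the detection limit, a call lost under 7 of the settings tried. Nov and Tead1 were not above background on any array.

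RNA of murine hip cartilage was measured on 12 Illumina mouse BeadChips in 4 groups of 3 arrays. All mice were C57BL6, aged 4 to 6 weeks in the sample labels and 5 to 6 weeks in the methods. Hips were avulsed and then snap-frozen (WT control and Mapk9 KO control) or cultured for 4 h (WT injured and Mapk9 KO injured). The study also calls the controls uninjured. The comparison is thus of cultured with directly frozen hips, and injury and culture cannot be told apart. Mapk9 encodes JNK2, a stress-activated kinase, and the labels give no further detail of the knockout allele. Each replicate pooled 6 hips of 3 mice. The normalized values are on a log2 scale, and a probe was counted as changed when its fold change was above 2 and its adjusted p from limma was under 0.05. A probe was counted as detected on an array when its detection p-value was under 0.05.

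The brighter Mapk9 probe was lower in the knockout, with 10.50 to 10.90 on WT control arrays and 9.14 to 9.28 on Mapk9 KO control arrays. The difference was -1.57 in control and in injured cartilage. It shows less Mapk9 message in the knockout and not its absence. The chondrocyte marker list (10 of 12 genes in the table, all 10 detected on every array) had a mean log2 level of 10.92 to 11.61 on control arrays of both genotypes and of 12.47 to 12.75 on injured arrays. Skeletal muscle markers (15 genes) went the other way, from 10.59 to 12.45 on WT control arrays to 7.96 to 9.86 on WT injured arrays, and from 12.45 to 12.81 to 8.42 to 9.58 in Mapk9 KO. Of these 15 genes, 12 fell in WT and all 15 in Mapk9 KO, beside 8.24% and 10.4% of all genes. In such pooled tissue fewer cells of a type and less RNA per cell cannot be told apart. WT control replicate 3 carried more muscle signal (12.45) than the other WT control arrays (11.28 and 10.59).

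CCN proteins are secreted, cysteine-rich proteins of the matrix that bind integrins, heparan sulphate proteoglycans and growth factors. Ctgf is abundant in cartilage, where it is made by chondrocytes and is needed for normal growth plate matrix. Cyr61 is an immediate early gene, and Wisp2 lacks the C-terminal domain that the other CCN proteins share. In the Hippo pathway, the kinases Stk3 and Stk4 activate Lats1 and Lats2, which phosphorylate Yap1 and Wwtr1 and hold them in the cytoplasm. This control acts on the proteins, which arrays do not measure.

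The probes of a gene lay at different places of its transcript, and the sequences of those that differed in size of response are shown for that reason. Each line gives the leading 30 bases of a 50-base probe, with its start position in the transcript as the file gives it. Probes are numbered in order of that position.
Cyr61 probe 1 (position 690): attaaggactccctggacgaccaggatgac
Cyr61 probe 2 (position 1584): gctccatattggagcatgtttacggatgac
Cyr61 probe 3 (position 1702): gagacaaaataagattagttgggccaagtg
Ctgf probe 1 (position 2032): gggaattgtgacctgagtgactctctgtca
Ctgf probe 2 (position 2165): agaaatggctggctcagggtaaggtccgat
Wwtr1 probe 1 (position 18): gccgccaaatccatcagatgaaaccatttt
Wwtr1 probe 2 (position 701): ctgaatcatgtgaacctccacccgtccatc

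The TEAD box GGAATG, the short sequence through which TEAD factors hold YAP and TAZ at DNA, was searched on both strands of the 250 bases before the gene start. RefSeq windows (GRCm38.p6) were matched for Cyr61, Ankrd1, Yap1 and Wwtr1. The box was present in the windows of all 4 of these genes, and in 12.6% of 32851 windows of that length. Counted from the start, it lay at -103 to -98 in Cyr61, on the opposite strand, and at -210 to -205 and -123 to -118 in Ankrd1. In Yap1 it lay at -141 to -136 and in Wwtr1, in the first of 2 windows, at -136 to -131. The windows of Cyr61 and Ankrd1 are shown as those of the targets among these genes, with the box in capitals (CATTCC is GGAATG on the opposite strand). No match was found in these windows to the AP-1 site TGANTCA (6.75% of all windows), the CRE TGACGTCA (1.55%) or the CArG box (1.47%), the site of SRF. The letter match is a description of these windows and says nothing of binding.
Cyr61 (minus strand, chr3:145649986-145650235): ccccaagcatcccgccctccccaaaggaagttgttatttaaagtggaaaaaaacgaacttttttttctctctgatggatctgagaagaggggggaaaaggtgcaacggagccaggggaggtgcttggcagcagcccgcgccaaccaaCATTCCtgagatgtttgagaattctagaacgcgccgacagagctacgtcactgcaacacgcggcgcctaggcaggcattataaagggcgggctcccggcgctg
Ankrd1 (minus strand, chr19:36119845-36120094): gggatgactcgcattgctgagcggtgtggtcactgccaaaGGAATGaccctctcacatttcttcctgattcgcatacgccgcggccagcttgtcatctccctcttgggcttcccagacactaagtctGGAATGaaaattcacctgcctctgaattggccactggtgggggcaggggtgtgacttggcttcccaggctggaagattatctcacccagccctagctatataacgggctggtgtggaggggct

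Ctgf was detected on all 12 arrays at both of its probes. Probe 1 read 13.13, 12.67 and 12.58 on the WT control arrays and 13.66, 13.78 and 13.68 on the WT injured arrays. All WT injured arrays were above all WT control arrays, with a difference of 0.91 ± 0.21 (log2, SE, n = 3 per group, limma adjusted p = 0.0108), which is 1.88-fold and within the 2-fold limit. In Mapk9 KO the same probe went from 12.08, 12.57 and 12.17 to 13.61, 13.91 and 13.70. This rise of 1.47 ± 0.19 (2.76-fold, limma adjusted p = 0.00016) passed the threshold. Probe 2 gave 13.88, 13.48 and 13.22 in WT control and 14.33, 14.51 and 14.13 in WT injured, a difference of 0.79 ± 0.23 (limma adjusted p = 0.0284). For Mapk9 KO, probe 2 gave 13.22, 13.48 and 12.93 in controls and 14.19, 14.50 and 13.81 post injury, a difference of 0.96 ± 0.22 (limma adjusted p = 0.00601). Neither difference at probe 2 reached 2-fold, so the call for Ctgf in Mapk9 KO rested on 1 of its 2 probes. Probe 2 passed in Mapk9 KO without Mapk9 KO control replicate 2 (1.09, limma adjusted p = 0.00878) and without Mapk9 KO injured replicate 3 (1.14, limma adjusted p = 0.00459). Without WT control replicate 1, probe 1 also passed in WT, with a rise of 1.08. Of 10 chondrocyte markers, 6 rose and 1 fell in WT and 7 rose in Mapk9 KO, beside 8.35%, 8.24% and 10.6% of all genes. Of 8 neutrophil markers 5 rose in each genotype, and their mean level went from 12.57 to 13.19 on WT control arrays to 13.77 to 13.99 post injury, and from 13.01 to 13.40 to 13.48 to 13.96 in Mapk9 KO. Of 8 macrophage markers 2 rose and 5 fell in WT and 2 rose and 6 fell in Mapk9 KO, with mean levels that went from 9.40 to 9.78 to 8.97 to 9.37 in WT and from 9.58 to 9.72 to 8.78 to 9.02 in Mapk9 KO. The part of these cell types in the changes of Ctgf, Cyr61 and the other members was not tested.

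Cyr61 rose at all 3 of its probes in both genotypes. Probe 1 read 9.54, 8.40 and 9.46 on the WT control arrays and 10.63, 10.07 and 10.09 on the WT injured arrays. The rise was 1.13 ± 0.31 (2.19-fold, limma adjusted p = 0.0245). In Mapk9 KO the control arrays lay close together at 8.36, 8.27 and 8.29, and the injured arrays read 10.98, 10.50 and 11.02. The rise there was 2.53 ± 0.19 (5.77-fold, limma adjusted p = 3.36e-06). Within WT, replicate 2 had the lowest control value, and without it the rise at probe 1 was 0.77 and no longer 2-fold. Without WT injured replicate 1 it was 0.95 (limma adjusted p = 0.0903).

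The other Cyr61 probes gave larger rises in WT. Probe 3 went from 8.45, 7.75 and 8.58 to 9.66, 10.17 and 10.24, a rise of 1.76 ± 0.27 (3.39-fold, limma adjusted p = 0.00122). In the knockout it went from 7.50, 7.91 and 7.65 to 9.82, 9.90 and 10.22, a rise of 2.30 ± 0.19 (4.91-fold, limma adjusted p = 6.4e-06). Probe 2 lay near the detection limit and was detected on 2 of 3 WT control arrays and on no Mapk9 KO control array. It went from 5.97, 4.66 and 6.32 to 7.69, 7.99 and 8.33 in WT, a difference of 2.35 ± 0.38 (limma adjusted p = 0.00174) that passed, with no fold given because the lowest control value, of replicate 2, was not detected. Its Mapk9 KO control mean of 5.26 was not well above background, so its mean of 7.92 post injury was at least 3.97-fold higher (limma adjusted p = 4.86e-06). The calls at probes 2 and 3 held with each array left out in turn. With the methods' t-test the WT calls were lost at probe 2 (adjusted p = 0.0722) and probe 1 (0.16) and kept at probe 3, and quantile normalization alone brought probe 1 in WT to 0.91.

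Wisp2 fell. It read 11.36, 10.19 and 10.53 on the WT control arrays and 8.98, 9.81 and 8.94 on the WT injured arrays, and the groups did not overlap. The difference was -1.46 ± 0.33 (2.74-fold lower, limma adjusted p = 0.0104). The call in WT was lost with the methods' t-test (adjusted p = 0.121). The Mapk9 KO arrays read 10.30, 10.48 and 10.02 in controls and 8.81, 8.86 and 8.85 post injury, a difference of -1.43 ± 0.18 (2.69-fold lower, limma adjusted p = 0.000124). Between same-numbered WT samples the fall ranged from 0.39 in replicate 2 to 2.39 in replicate 1. Fibroblast and tendon markers (6 of 8 genes in the table) moved the same way, from 8.73 to 8.83 on WT control arrays to 7.53 to 8.13 post injury, and from 8.46 to 8.82 to 7.43 to 7.78 in Mapk9 KO. Adipocyte markers (7 of 8 genes in the table) also had lower mean levels, from 7.08 to 8.31 on WT control arrays to 6.46 to 6.67 post injury, and from 7.77 to 9.31 to 6.29 to 6.43 in Mapk9 KO. Of these 7 genes, 2 fell in WT and 4 in Mapk9 KO, beside 8.24% and 10.4% of all genes. The part of these cell types in the fall of Wisp2 was not tested.

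Nov was not detected. Its 2 probes lay outside the normalized table, with signal intensities of 97.6 to 141 and of 97.0 to 158 over the 12 arrays and no detection p-value below 0.191. No fold change is given for it.

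**Figure D1:**
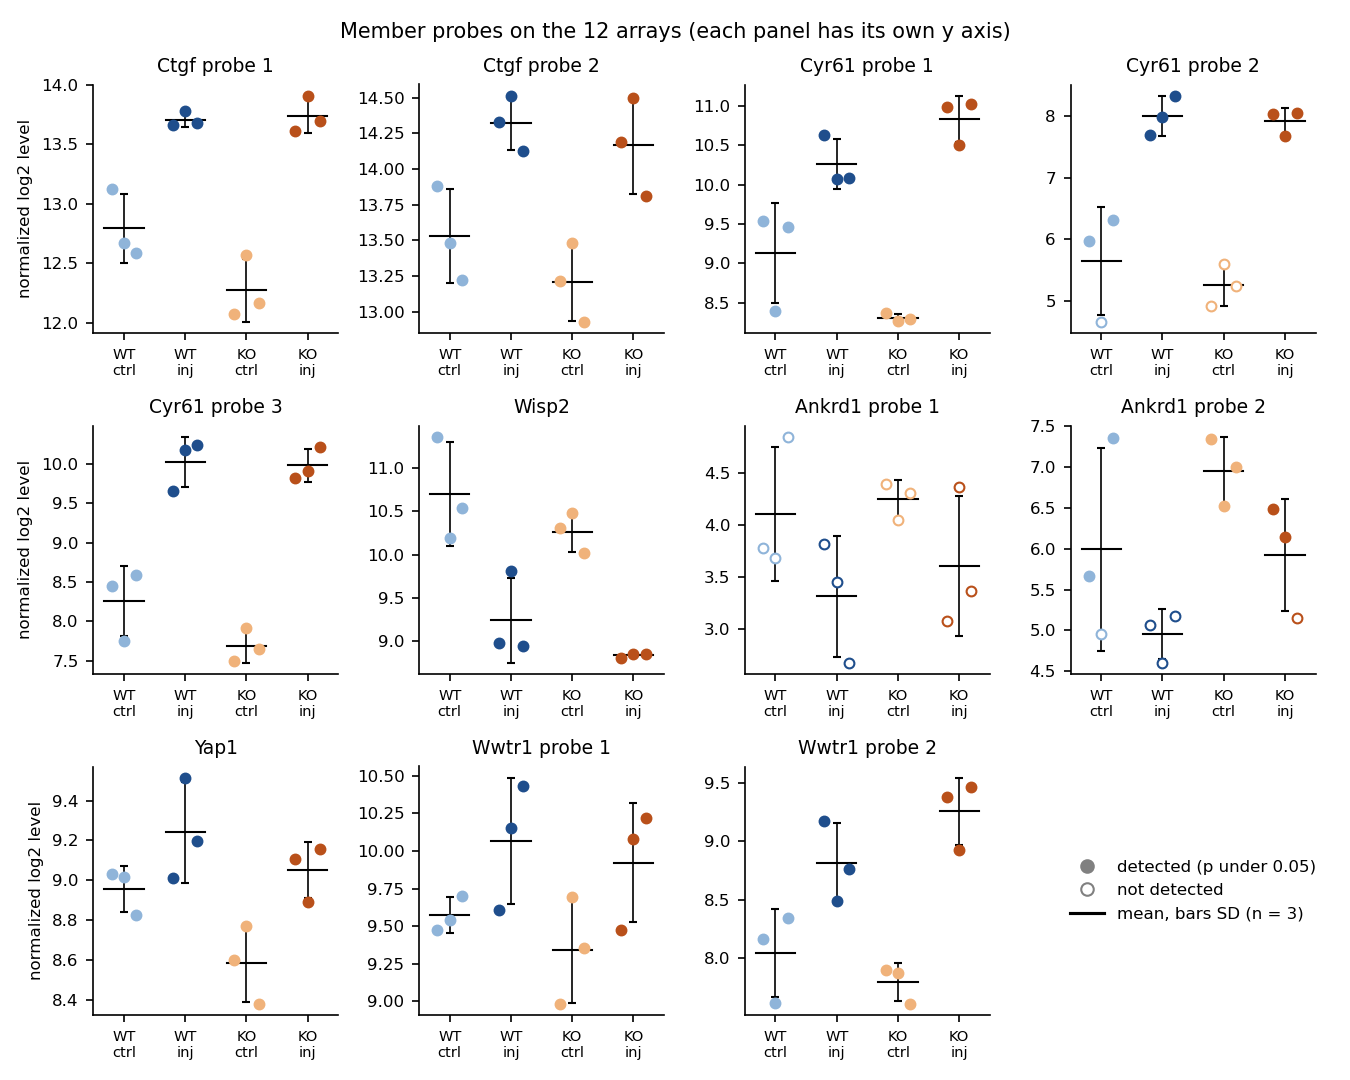
Normalized log2 level (y axis, 1 scale per panel) of the 11 member probes on each array, by group on the x axis (3 arrays each). Filled points were detected, open points were not, and bars show the mean and SD. All Cyr61 and Ctgf panels have the injured arrays above the control arrays of the same genotype, Wisp2 has them below, and most Ankrd1 points are open.

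Outside the named members, the CCN family held Wisp1 (CCN4), and Wisp3 (CCN6) had no probe. The brighter Wisp1 probe read 12.21, 12.41 and 11.74 in WT control and 11.22, 11.64 and 11.34 in WT injured, a difference of -0.72 ± 0.23 (limma adjusted p = 0.047) that did not reach 2-fold. A second, dimmer probe passed in WT with a difference of -1.24 ± 0.28. Of the 4 family genes in the table, 1 rose and 2 fell in WT, and 2 rose and 1 fell in Mapk9 KO, where a gene counts when any of its probes passed. Counted the same way over all genes, 8.35% rose and 8.24% fell in WT, and 10.6% rose and 10.4% fell in Mapk9 KO. The CCN receptors (12 genes, mostly integrin subunits) had 1 rise in each genotype, a share near that of all genes. That was Itga5, the fibronectin receptor subunit, which went from 8.87, 8.0 and 8.56 to 10.02, 10.11 and 9.99 in WT, a rise of 1.56 ± 0.24 (limma adjusted p = 0.00134), and rose by 1.95 ± 0.17 in Mapk9 KO. One probe of 4 for Itgav, chosen here after its values were seen, fell in Mapk9 KO, while its brightest probe gave 0.36 ± 0.22.

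Ankrd1 encodes an ankyrin repeat protein of muscle sarcomeres and nuclei and is widely used as a YAP/TAZ target. It lay near the detection limit. Probe 2 was detected on 7 of 12 arrays and probe 1 on 0. Probe 2 read 5.66, 4.95 and 7.36 on the WT control arrays and 5.07, 4.61 and 5.18 on the WT injured arrays, where it was not well above background. The groups overlapped and the fitted difference of -1.04 ± 0.49 (limma adjusted p = 0.156) had a 95% interval from -2.14 to 0.06, so no fold is given. In Mapk9 KO it read 7.34, 6.52 and 7.0 in controls and 6.48, 6.14 and 5.16 post injury. The difference of -1.03 ± 0.33 (limma adjusted p = 0.0291) passed the threshold, with the nearest arrays of both groups at 6.52 and 6.48. The probe was detected on 2 of the 3 injured arrays, and the undetected one, replicate 3, had the lowest value, so no fold is given.

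The call for Ankrd1 in Mapk9 KO was lost under several settings. The difference was -0.98 after quantile normalization of normexp-corrected signals and -0.44 after quantile normalization alone. With all 12 arrays in the fit the limma adjusted p was 0.116, and with the methods' t-test the adjusted p was 0.184. The call was also lost without Mapk9 KO control replicate 1 (-0.83), without Mapk9 KO control replicate 3 (limma adjusted p = 0.0686) and without Mapk9 KO injured replicate 3 (-0.64). In WT, where it had not passed, Ankrd1 passed without WT control replicate 2, with a difference of -1.56 (limma adjusted p = 0.0164), and without WT control replicate 3 the difference was -0.35 (limma adjusted p = 0.402). Across the 12 arrays all 6 measured genes ran with or against the mean of the skeletal muscle list at their brightest probe (a description over arrays that share groups). Pearson r was 0.765 for Wisp2 and 0.733 for Ankrd1, and it was -0.873 for Cyr61, -0.826 for Ctgf, -0.731 for Yap1 and -0.540 for Wwtr1. The WT control array with the highest Ankrd1 value, replicate 3, was also the one with the highest muscle level. The part of muscle in the values of these genes was not tested.

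Yap1 gave small differences. It read 9.03, 9.02 and 8.82 on WT control arrays and 9.01, 9.51 and 9.20 on WT injured arrays, and the difference of 0.28 ± 0.21 (limma adjusted p = 0.359) had a 95% interval from -0.18 to 0.74. The Mapk9 KO arrays read 8.60, 8.77 and 8.38 in controls and 9.10, 8.89 and 9.16 post injury. These groups did not overlap, but the difference of 0.47 ± 0.18 (1.38-fold, limma adjusted p = 0.0634) did not pass.

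The 2 probes of Wwtr1 differed. Probe 1, the brighter, read 9.47, 9.54 and 9.70 in WT control and 9.61, 10.16 and 10.43 in WT injured, with overlapping groups and a difference of 0.49 ± 0.24 (limma adjusted p = 0.167). In Mapk9 KO it read 8.99, 9.69 and 9.36 in controls and 9.47, 10.08 and 10.22 post injury, and the difference of 0.58 ± 0.25 (limma adjusted p = 0.089) did not pass. Between same-numbered samples probe 1 was higher post injury in all 6 pairs, by 0.13 to 0.73 in WT and by 0.39 to 0.86 in Mapk9 KO. With the replicate block the limma adjusted p was 0.097 in WT and 0.0224 in Mapk9 KO, and neither difference reached 2-fold. Probe 2 read 8.17, 7.62 and 8.34 in WT control and 9.17, 8.49 and 8.76 in WT injured, a difference of 0.77 ± 0.26 (limma adjusted p = 0.0529). In Mapk9 KO probe 2 rose from 7.90, 7.87 and 7.61 to 9.38, 8.93 and 9.46, by 1.46 ± 0.20 (2.75-fold, limma adjusted p = 0.000201). A further probe with the accession of Wwtr1 but another symbol, which starts 1 base before probe 2, rose by 1.04 ± 0.24 in WT (limma adjusted p = 0.0111) and by 1.62 ± 0.21 in Mapk9 KO. Leaving out WT control replicate 2 brought its WT rise to 0.85, and leaving out WT injured replicate 1 brought it to 0.92, both under 2-fold. With the methods' t-test its WT call was lost too (adjusted p = 0.0819), as it was with quantile normalization alone (0.73).

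Tead1, the DNA-binding partner, was not detected. Its 1 probe had signals of 93.4 to 130 over the 12 arrays and no detection p-value below 0.622. Of its paralogs, Tead2 was the one detected on all arrays of every group, and it fell. It read 9.69, 9.82 and 9.01 in WT control and 8.06, 8.36 and 8.08 in WT injured, a difference of -1.34 ± 0.25 (limma adjusted p = 0.00344). In the knockout it read 9.29, 9.53 and 8.81 in controls and 7.85, 8.02 and 7.37 post injury, a difference of -1.46 ± 0.24 (limma adjusted p = 0.000712). Tead4 did not pass in either genotype and was detected on 4 of the 12 arrays (0 WT control arrays and 1 WT injured array), and Tead3 lay outside the normalized table.

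**Figure D2:**
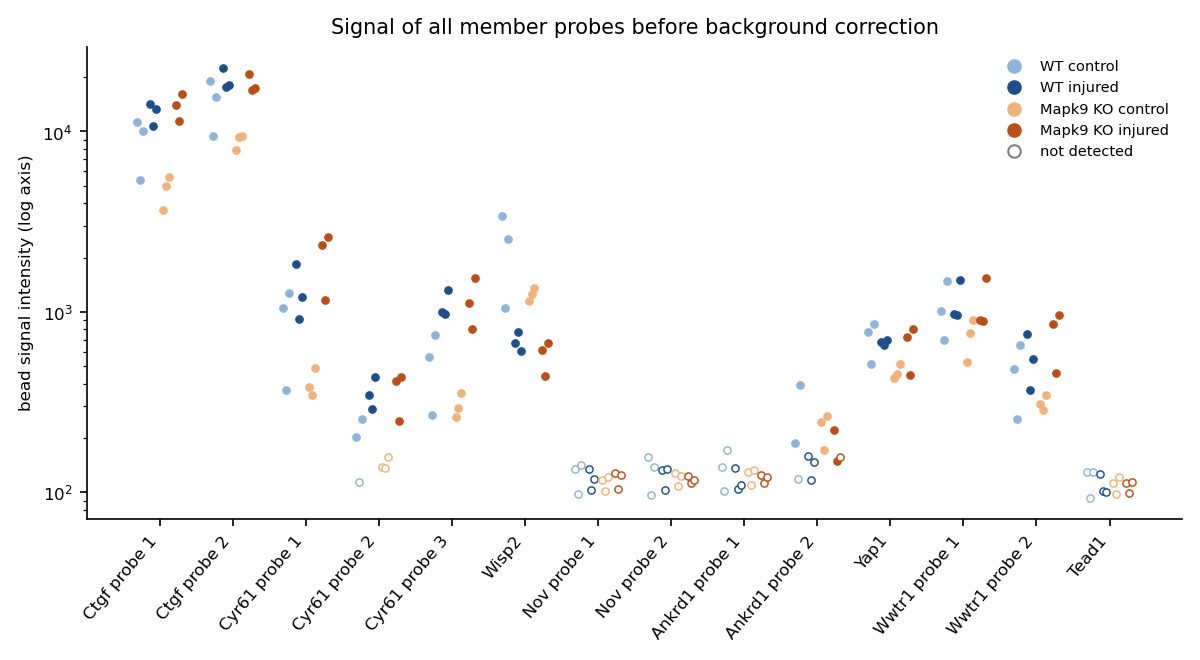
Bead signal intensity before background correction (log axis) of all 14 member probes (x axis) on the 12 arrays, coloured by group; open points were not detected. Both Nov probes, Tead1 and Ankrd1 probe 1 sit between 93.4 and 171 with open points on all arrays, while Ctgf lies above 3660.

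By probe, 3 of 11 rose and 1 fell in WT, beside 7.55% of all probes that rose and 7.14% that fell. In Mapk9 KO 5 of 11 rose and 2 fell, beside 9.59% and 9.14%. The arrays of the 2 conditions did not overlap for 7 of 11 probes in WT (41.2% of all probes) and for 9 of 11 in Mapk9 KO (49.7%). The injury effect had the same sign in both genotypes at all 11 probes, and the share of all probes for which this held was not counted. By gene, 2 of the 6 measured genes passed in WT (Cyr61 and Wisp2) and 5 in Mapk9 KO (Cyr61, Ctgf, Wwtr1, Wisp2 and Ankrd1). The further Wwtr1 probe under another symbol, which passed in WT too, was not counted. Of all genes 8.35% rose and 8.24% fell in WT, and 10.6% rose and 10.4% fell in Mapk9 KO. The median over the highest-mean probes of the 6 genes was 0.39 in WT and 0.52 in Mapk9 KO, beside -0.02 and -0.04 over all genes.

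**Figure D3:**
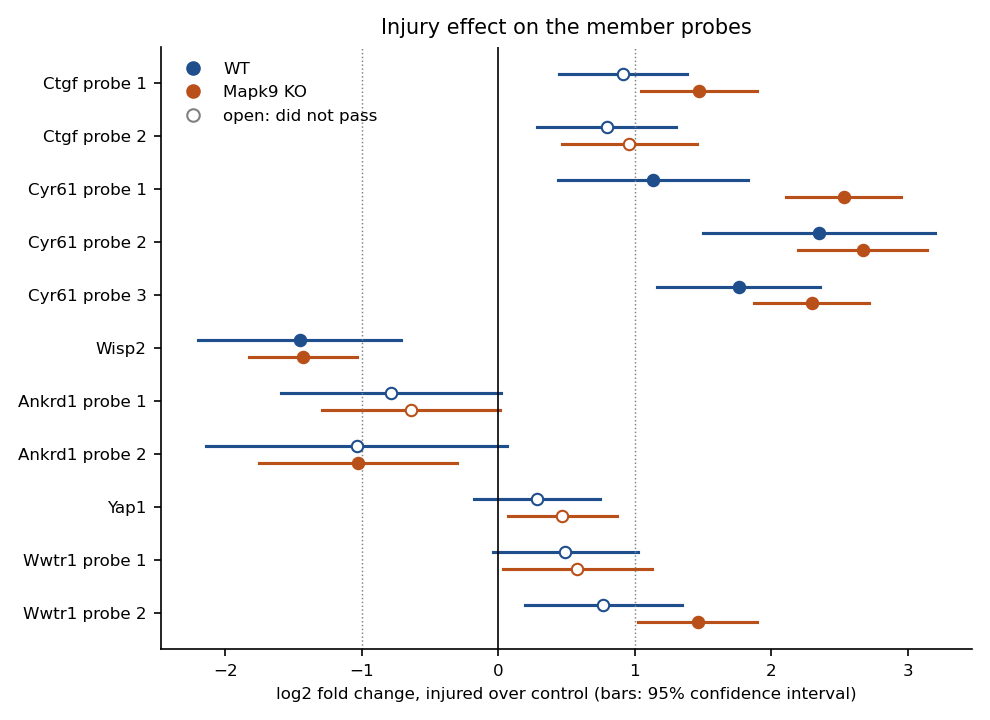
Log2 fold change of injured over control cartilage (x axis) with its 95% confidence interval for each of the 11 member probes in WT (blue) and Mapk9 KO (orange), from limma with 3 arrays per group. Filled points passed the threshold, and dotted lines mark 2-fold. Cyr61 is filled to the right in both genotypes, Wisp2 is filled to the left in both, and the Yap1 points are open.

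No member differed between the genotypes after adjustment. In control cartilage 0 of 11 member probes passed (0.119% of all probes did), in injured cartilage 0 passed (0.181%), and for the interaction of genotype and injury 0 of all 21004 probes passed in limma (0%), with 2088 at an unadjusted p under 0.05. With the replicate block, 19 probes passed for genotype in control cartilage, 188 in injured cartilage and 112 for the interaction, none of them of a member. At 9 of 11 probes, which belong to 6 genes, the mean was lower in Mapk9 KO control than in WT control. The median of this difference over all probes was -0.01, and the share of all probes that were lower was not counted. Cyr61 probe 1 had the largest interaction of the members, 1.39 ± 0.39 (95% interval 0.56 to 2.23, limma adjusted p = 0.312). Its Mapk9 KO control values lay below its WT control values (-0.82 ± 0.30, limma adjusted p = 0.646) and its mean post injury lay above (0.57 ± 0.22, limma adjusted p = 0.333). The other Cyr61 probes gave interactions of 0.53 ± 0.34 and 0.32 ± 0.48. For Ctgf the interaction was 0.56 ± 0.27 at probe 1 (limma adjusted p = 0.526) and 0.17 ± 0.32 at probe 2, and for Wisp2 it was 0.03 with a 95% interval from -0.85 to 0.90. Intervals of this width do not show that the genotypes responded alike. Without WT control replicate 3, Ankrd1 was higher in Mapk9 KO control than in WT control (1.65, limma adjusted p = 0.0195), and the muscle level of Mapk9 KO control arrays (12.45 to 12.81) was then above that of both remaining WT control arrays.

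The wider YAP/TAZ target signature (22 genes, 18 in the table, the members Ctgf, Cyr61 and Ankrd1 among them) had 6 genes that rose and 3 that fell in WT, and 7 that rose and 5 that fell in Mapk9 KO. The shares of all genes were those given for the CCN family. The median of the signature was 0.52 in WT and 0.77 in Mapk9 KO. Nt5e, the ecto-5'-nucleotidase CD73 that makes adenosine, read 11.40, 10.72 and 10.87 in WT control and 13.67, 13.39 and 13.24 in WT injured, a rise of 2.43 ± 0.24 (limma adjusted p = 9.41e-05). It rose by 2.97 ± 0.19 in Mapk9 KO. Gadd45a, a stress and DNA damage response gene, rose by 1.91 ± 0.21 in WT and by 2.19 ± 0.20 in Mapk9 KO. Rbms3, an RNA-binding protein, fell by 1.31 ± 0.21 on the log2 scale in WT and by 1.15 ± 0.17 in Mapk9 KO. The other genes that rose in WT, named here after their values were seen, were Amotl2, Igfbp3 and Nuak2, and the others that fell were Ptpn14 and Myof. The signature held genes that moved both ways.

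Of the Hippo kinases and scaffolds (16 genes, 12 in the table), 1 rose and 2 fell in WT, and 1 rose and 1 fell in Mapk9 KO, with medians of -0.27 and -0.19. Of all genes 8.35% rose and 8.24% fell in WT, and in Mapk9 KO 10.6% rose and 10.4% fell, so that 1 gene of 12 is near these shares. Amotl2, an angiomotin that binds YAP and is itself a target gene, read 6.86, 5.56 and 7.17 in WT control and 7.55, 7.82 and 7.85 in WT injured, a rise of 1.21 ± 0.36 (limma adjusted p = 0.0339). In Mapk9 KO it rose by 1.60 ± 0.20 (limma adjusted p = 0.000122). Ptpn14, a phosphatase that retains YAP outside the nucleus, fell at its brightest probe by 1.23 ± 0.23 in WT and by 1.19 ± 0.19 in Mapk9 KO. Of its 5 probes, 2 passed in each genotype. Stk3 (MST2), the kinase at the top of the pathway, went from 7.15, 7.74 and 6.81 in WT control to 5.74, 4.73 and 5.26 in WT injured, where it was not well above background, so it was at least 2.62-fold lower (limma adjusted p = 0.00136). In Mapk9 KO the difference of -0.55 ± 0.20 did not pass (limma adjusted p = 0.0515). Of the 3 Stk3 probes, 2 passed as lower in WT and 0 in Mapk9 KO. Lats1 did not pass, with means of 6.18 in WT control and 5.61 in WT injured, where it was not well above background, and a difference of -0.82 ± 0.23 in Mapk9 KO, and Lats2 lay outside the normalized table.

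Among the TEAD and VGLL genes (8 genes, 5 in the table), 0 rose and 2 fell in WT, and 3 fell in Mapk9 KO, beside 8.24% and 10.4% of all genes that fell. Beside Tead2, Vgll3, a TEAD cofactor, passed in both genotypes, but it was detected on 1 control array and 0 injured arrays of each, so no fold is given for it. Vgll2, a cofactor of skeletal muscle named here after its values were seen, was at least 6.47-fold lower in Mapk9 KO (limma adjusted p = 6.19e-07), where the muscle markers fell too, and their part in it was not tested. Vgll4, which competes with YAP for TEAD, gave 0.94 ± 0.23 in WT and 0.78 ± 0.22 in Mapk9 KO (limma adjusted p = 0.0138 and 0.0158) and stayed within 2-fold.

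The genes of SRF and MRTF, the other actin-linked route to the nucleus, had 12 of 16 genes in the table. Of these, 0 rose in either genotype, 1 fell in WT (8.24% of all genes fell) and 3 fell in Mapk9 KO (10.4%), with medians of -0.04 and -0.20. The gene that passed in WT was Tpm4, at a probe other than its brightest, and in Mapk9 KO Actb, Acta2 and Tpm1 passed, all named here after their values were seen. Among mechanosensors and focal adhesion genes (13 genes, 12 in the table), 2 rose in WT (8.35% of all genes), and 3 rose and 1 fell in Mapk9 KO (10.6% and 10.4%). Trpv4, a calcium channel by which chondrocytes sense load, read 8.80, 8.63 and 8.92 in WT control and 9.83, 10.37 and 10.03 in WT injured at its brightest probe, a rise of 1.29 ± 0.21 (limma adjusted p = 0.00191). It rose by 1.57 ± 0.21 in Mapk9 KO, and of its 3 probes 1 passed in WT and 3 in Mapk9 KO. Zyx, zyxin of focal adhesions and stress fibres, rose by 1.03 ± 0.22 in WT (limma adjusted p = 0.00715) and gave 0.72 ± 0.22 in Mapk9 KO. TGF-beta, which induces Ctgf, had 7 of 8 genes in the table, and its receptor Tgfbr1 was the one that passed, with a difference of -1.5 ± 0.28 in WT and -1.45 ± 0.22 in Mapk9 KO. A single gene of 7 is near the shares of all genes that fell (8.24% in WT and 10.4% in Mapk9 KO).

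**Figure D4:**
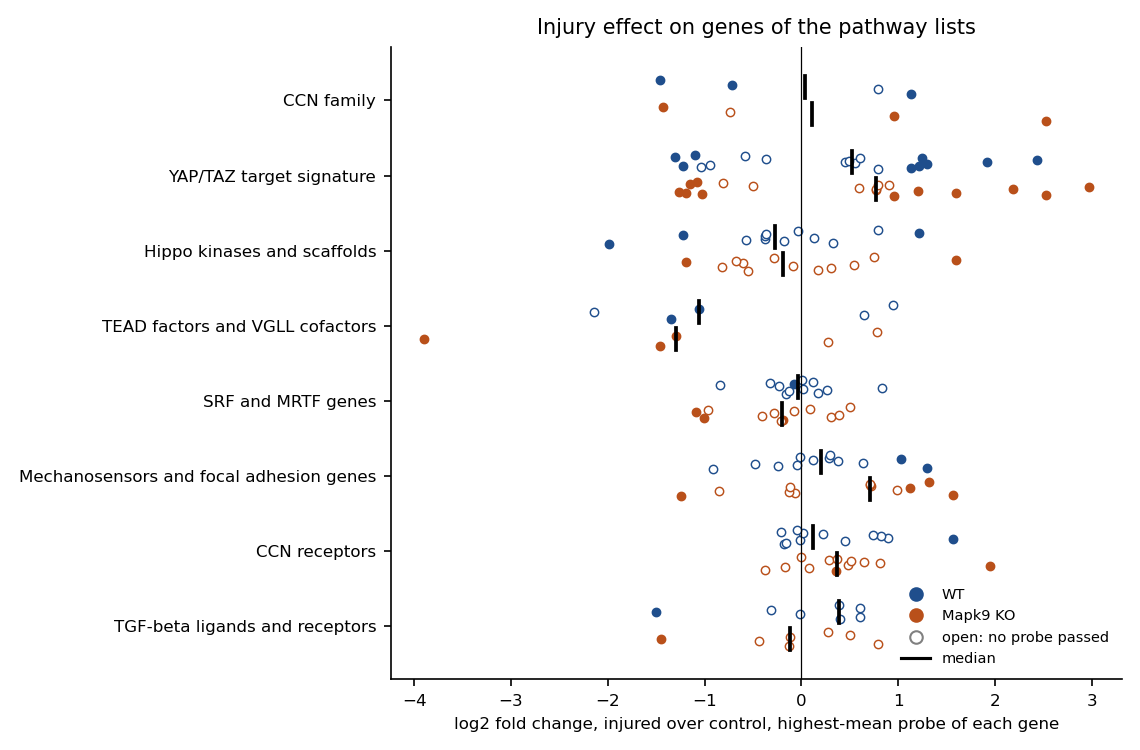
Log2 fold change of injured over control (x axis) at the highest-mean probe of each gene of 8 pathway lists (rows), in WT (blue) and Mapk9 KO (orange). Filled points had a probe that passed, and black bars are medians. The YAP/TAZ signature has filled points on both sides of 0, while the medians of the SRF and MRTF genes are -0.04 and -0.20.

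The members did not move as 1 block across the 12 arrays. These correlations describe arrays that share groups. Probes of 1 gene agreed closely for Cyr61 (Pearson r from 0.925 to 0.986) and Ctgf (0.940), and less for Wwtr1 (0.507) and Ankrd1 (0.675). Between the brightest probes, Ctgf correlated with Cyr61 at 0.782 and with Yap1 at 0.776, and Wisp2 correlated with Cyr61 at -0.721. Ankrd1 ran against Yap1 at -0.802. Over the 5496 probes compared, the genes most like Cyr61 were LOC380930, Nfat5 and Bsg (r from 0.980 to 0.988), and those most like Ctgf were Dhx38, Cemip2 and Emp1 (0.973 to 0.978). Those most like Wisp2 were Cracr2b, Fam167a and Mxra8 (0.976 to 0.982), and those most like Ankrd1 were Adssl1, Pacsin3 and Pdlim5 (0.913 to 0.928). Among those closest to Wwtr1 were Osbpl5 (0.915) and Hspa8 (0.908), and Yap1 was closest to Wwp2, Bmp8a and 5031425E22Rik (0.909 to 0.916).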

How the data were processed

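Per the study's methods, signal intensities were background-corrected by the authors against negative controls on each array and transformed with vsn, and log2 values were deposited for 21004 probes. The authors also deposited uncorrected signal intensities with a detection p-value for 45281 probes. Versions of the R packages used for the arrays are not given in the sources used here.

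Groups came from the sample labels. Each comparison was fitted in limma 3.58.1 (R 4.3.3) on its 6 arrays, and the interaction on all 12, with Benjamini-Hochberg adjustment over 21004 probes. The script was tested on simulated data. A probe undetected on all 3 arrays of a group gives a bound: on each array of that group the dim value was raised to the lowest detected one where it lay under it. Between 16930 and 18969 probes were detected per array, and the number of arrays limits the precision.

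The members and lists were chosen with earlier results of these data known. Probes were matched by symbol in either deposited table (4198 probes differ in symbol between them) and, for list genes, by RefSeq accession. Named genes were all members, up to 3 genes per pathway list with the largest called change in WT and groups that do not overlap, TEAD, VGLL, LATS and WISP genes fixed by name, Mapk9, and the 3 genes most like each member among probes detected on at least 3 arrays with an SD above 0.5. One gene that falls under this rule is not reported here.

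Samples with the same replicate number deviated together (r 0.153 to 0.390 over 18 pairs, -0.289 to 0.0825 over 36 other pairs), so the numbers were taken to pair the samples, and a replicate block was fitted as an alternative. The remaining alternatives changed the normalization, centring, detection filter, arrays in the fit, blocking by label code, test, fold limit and probe choice, or left out single arrays. The methods' t-test is the one that the study names for metabolite features and, in a legend, for gene expression.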

Additional observations from a re-analysis of the deposited data

How the results depend on the processing

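No injury effect of a member probe changed direction under any alternative run. Of the 6 member genes, 2 passed in WT, and this was 1 (Cyr61) with the methods' t-test and 3 without a fold limit; leaving out arrays gave 2 to 3. The 5 genes in Mapk9 KO became 3 with 1 probe per gene, and 4 to 5 with arrays left out. No member passed for genotype in control cartilage except without WT control replicate 3 (0 to 1 genes over the arrays left out). The replicate block changed no call of a member.

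Over all probes, 3086 passed in WT, and this was 1140 with quantile normalization without background correction, 1624 with the methods' t-test and 5319 without a fold limit. In Mapk9 KO 3934 passed, against 1756 with that normalization and 8045 without a fold limit. For genotype in control cartilage, 25 probes passed, against 13 with quantile normalization without background correction, 44 with all 12 arrays in the fit, 0 with the methods' t-test (1178 at an unadjusted p under 0.05), and 17 to 412 with arrays left out, the 412 without WT control replicate 3. In injured cartilage 38 passed, against 22 with that quantile normalization, 188 with the replicate block, 0 with the methods' t-test (1959 unadjusted), and 23 to 154 with arrays left out, the 154 without WT injured replicate 1. The interaction had 0 calls, 112 with the replicate block, and 0 to 242 with arrays left out, the 242 without WT control replicate 3. The cause of these shifts was not tested. Ankrd1, Vgll3 and Cyr61 probe 2 lie near the detection limit, where differences are least certain.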
